A study of Homo sapiens with 4 samples.

Results

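The genes described here encode the machinery of ribosome biogenesis in the nucleolus. They comprise 45 protein-coding genes named by their function, in a list drawn up with earlier results of these data known, together with LOC401010, a pseudogene of the member NOC2L that is given beside it. All 46 were listed among the 23217 gene symbols of the deposited table, under 73 of its 44578 transcripts. The cells were LV-M100, a single subclone of the MDA-MB-231 breast cancer line, and all groups shared this background, the lipid transfection and collection of RNA 48 h later. The siControl group was made of 2 libraries, replicate 1 with the NC1 control siRNA and replicate 2 with the BLOCK-iT Fluorescent Oligo. The siSNRNP40 group was made of 2 libraries, each with a different siRNA against SNRNP40, which encodes a component of the spliceosome's U5 particle. The comparison addressed which transcripts depend on the level of SNRNP40.

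Ribosomes are assembled in the nucleolus, where RNA polymerase I transcribes a long precursor of the ribosomal RNAs. Small nucleolar ribonucleoproteins then guide the chemical modification of this precursor, those of the box C/D class by methylation of the ribose and those of the box H/ACA class by conversion of uridine to pseudouridine. Separate sets of processing factors cut and fold the RNA into the small and the large subunit. The genes for these factors are known as targets of MYC and as a class that follows the growth state of a cell.

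The 2 siRNAs against SNRNP40 are shown because they define the depleted group. Both are given 5′ to 3′ as the sample labels print them, as 18 bases each.
siSNRNP40 #1: ggaauagacaaugauauc
siSNRNP40 #2: ggauuugaccgacugaua

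The deposited values pool the libraries of a condition, so each transcript has 1 value with siControl and 1 with siSNRNP40. The unit is FPKM, a count of fragments divided by the length of the transcript and the size of the library, which allows levels to be compared between genes. A replicate error, a confidence interval or a test of a difference cannot be computed from 1 pooled value per condition, the depth behind the values is unknown, and what belongs to 1 siRNA or library and what both share cannot be told apart. The words higher and lower are used below for the order of the 2 pooled values. SNRNP40 itself stood at an FPKM of 40.4 with siControl and 6.12 with siSNRNP40. The 5 markers fixed for MDA-MB-231 were abundant with siControl and siSNRNP40, with VIM at 750 and 733, CAV1 at 285 and 198, MSN at 138 and 131, AXL at 125 and 115 and CD44, in the other direction, at 116 and 141. Of the 5 luminal markers ESR1 (0.020 and 0.011), PGR (0.012 and 0.013) and FOXA1 (0.012 and 0.025) were near 0, while GATA3 had 1.32 and 1.18 and ERBB2 6.56 and 7.42. Of the 5 blood and vessel markers PTPRC and VWF were listed at 0, CD3E (0.020 and 0.096) was near 0, and CD14 had 0.446 and 0.213 and PECAM1 0.922 and 1.202. In bulk RNA, fewer cells of a type and less RNA per cell cannot be told apart.

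For each gene the FPKM of its transcripts was summed, and the log2 fold change was taken as siSNRNP40 over siControl. The mean FPKM over both conditions was 1 or more for all 45 protein-coding members. Their median log2 fold change was 0.23, a fold of 1.17, where the median of all 12334 genes above the same limit was 0.0034. The log2 fold change was above 0 for 40 of the 45 members (88.9%), where 50.5% of all genes lay above 0. It exceeded the upper quartile of all genes, 0.17, for 26 members (57.8%), where by construction 25.0% of all genes do. Both of these limits were chosen after the values were seen. The members ranged from -0.28 for GAR1 to 0.69 for RRS1, and no member was over 2-fold higher (0.811% of all genes) or over 2-fold lower (0.657% of all genes). Among the 8559 genes whose mean FPKM reached 5 the median was -0.010, so better expressed genes as a whole did not share the members' median. Leaving out NPM1, which held 54.1% of the members' summed FPKM with siControl, gave a median of 0.23 over 44 genes.

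The difference lay in many small values in the same direction rather than in a few large ones. Past the smaller limit of 0.32 on the log2 scale, which stands for 25% higher or 20% lower, 7 of 45 members (15.6%) were higher, where 11.9% of all genes were higher by that amount. None of the 45 was lower by that amount, where 11.5% of all genes were. Among the 8559 genes whose mean FPKM reached 5, 606 were higher by that amount and 818 lower, beside 7 and 0 of 43 members. The share of members higher by that amount was thus near that of all 12334 genes but above that of the better expressed ones. The share lower by that amount and the share above 0 were not near those of all genes. The 7 genes were RRS1, NOL6, POP7, RRP1, POLR1C, GNL3 and UTP6. UTP6, 25.1% higher, stood just inside this limit, and FBL, 23.8% higher, just outside it.

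**Figure D1:**
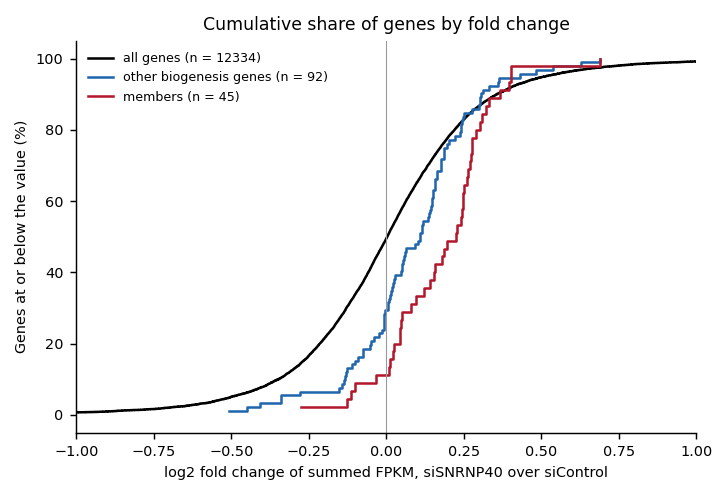
Cumulative share of genes (%, vertical axis) at or below each log2 fold change of summed FPKM, siSNRNP40 over siControl (horizontal axis, cut at -1 and 1), for all 12334 genes (black), 92 other biogenesis genes (blue) and the 45 members (red). The members' curve lies to the right of the others up to a log2 fold change of about 0.3, with 5 of 45 members below 0.

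Levels spanned 3 orders of magnitude, and their order was nearly the same in both conditions. With siControl the members ran from an FPKM of 2.16 for NOC4L through a median of 34.6 to 2618 for NPM1, and with siSNRNP40 from 2.57 through 39.9 to 2698 for the same lowest and highest genes. The 5 highest with siControl were NPM1 (2618), EBNA1BP2 (221), GNL3 (154), NCL (148) and NOP56 (145). The 3 lowest were NOC4L (2.16), GAR1 (4.67) and RRS1 (7.83). The largest move in rank among the 45 genes was that of RRS1, from rank 43 with siControl to rank 37 with siSNRNP40. The members' summed FPKM was 4842 with siControl and 5223 with siSNRNP40, or 0.938% and 1.01% of the FPKM of all transcripts.

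**Figure D2:**
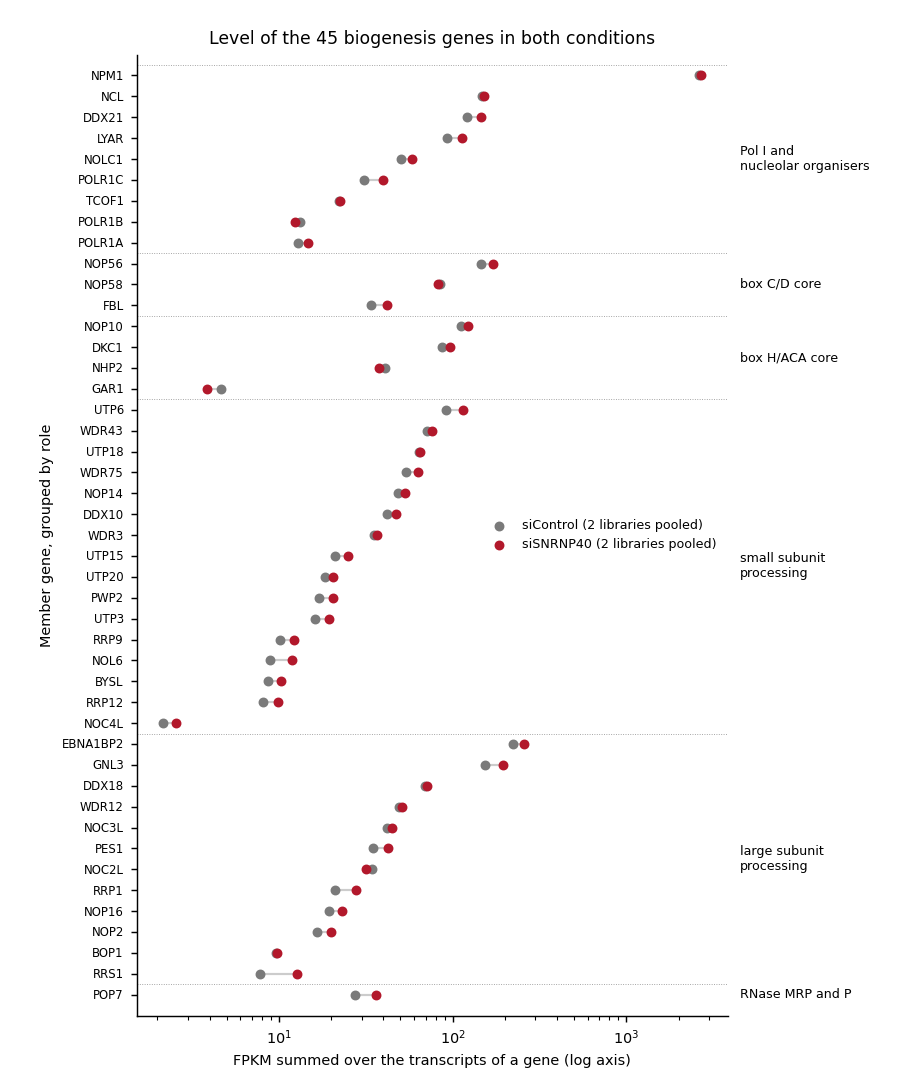
FPKM summed over the transcripts of each of the 45 members (log axis), with siControl (grey) and siSNRNP40 (red), 1 pooled value of 2 libraries each, grouped by role and ordered by the siControl level. Red points lie to the right of grey ones for 40 genes, and the 5 exceptions are POLR1B, NOP58, NHP2, GAR1 and NOC2L.

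RNA polymerase I and the proteins that organise the nucleolus were taken as the first group of 9 genes. Their median log2 fold change was 0.18, and 8 of 9 were above 0. The subunits of the polymerase did not share a direction. POLR1A, the largest catalytic subunit, had an FPKM of 12.9 with siControl and 14.6 with siSNRNP40 (log2 fold change 0.18). POLR1B, the other large subunit of the active centre, had 13.2 and 12.3 (-0.10). POLR1C, which is shared with RNA polymerase III, was at a higher level than both and had 30.9 and 39.9 (0.37), the highest value of the group. TCOF1, the treacle protein that links the polymerase to pre-ribosomal RNA processing, had nearly the same FPKM in both conditions, 22.3 and 22.5 (0.013). Its partner NOLC1, a chaperone of small nucleolar ribonucleoproteins, had 50.8 and 58.2 (0.20). Among the abundant nucleolar proteins, NPM1 (nucleophosmin) differed by 0.044 and NCL (nucleolin, 148 and 151) by 0.023 on the log2 scale. DDX21, an RNA helicase of the nucleolus, stood apart from these, with an FPKM of 120 and 145 (0.27), and LYAR, a nucleolar zinc finger protein, had 92.7 and 113 (0.29). The most abundant members of the group were thus among those whose 2 values differed least.

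The 3 core proteins of box C/D particles also did not share a direction. FBL (fibrillarin), the methyltransferase, had an FPKM of 33.8 with siControl and 41.8 with siSNRNP40 (log2 fold change 0.31). NOP56 had 145 and 170 (0.23), while NOP58, which pairs with NOP56 in the same particle, had 84.1 and 82.1 (-0.034). The methyltransferase was the least abundant of the 3 mRNAs in both conditions.

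Box H/ACA particles formed the group with the lowest median, 0.0045 over 4 genes, and 2 of the 4 were below 0. DKC1 (dyskerin), the pseudouridine synthase, had an FPKM of 87.1 with siControl and 97.0 with siSNRNP40 (log2 fold change 0.16). NOP10, a small structural subunit, had 112 and 122 (0.12). NHP2, which binds the guide RNA, had 40.7 and 37.6 (-0.11). GAR1, which contacts dyskerin, had 4.67 and 3.86 (-0.28), the lowest log2 fold change of all 45 members. The mRNA of GAR1 was also the least abundant of the 4 by a wide margin, although the proteins sit together in 1 particle. Whether this group differs from the others was not tested, since the members are not replicates.

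The 16 small subunit factors shared 1 direction. All 16 had a log2 fold change above 0, from 0.026 for UTP18 to 0.40 for NOL6, with a median of 0.25. NOL6, a component of the small subunit processome, had an FPKM of 8.94 with siControl and 11.8 with siSNRNP40. UTP6 had 91.7 and 115 (0.32) and was the most abundant of the group. Among the WD-repeat proteins of the processome were WDR3 (35.4 and 36.6, 0.049), WDR43 (71.6 and 75.7, 0.080), WDR75 (53.7 and 63.5, 0.24) and PWP2 (17.1 and 20.5, 0.26). RRP9, a protein specific to the U3 small nucleolar ribonucleoprotein, had 10.1 and 12.2 (0.27), and UTP3, which is encoded in a single exon, had 16.1 and 19.6 (0.28). The factors NOC4L (2.16 and 2.57), NOP14 (48.2 and 53.2) and UTP20 (18.4 and 20.6) had log2 fold changes of 0.25, 0.14 and 0.16. BYSL (8.61 and 10.3, 0.25) and RRP12 (8.12 and 9.85, 0.28), which act late in maturation of the particle, lay close to the group's median. UTP15 and the helicase DDX10 were the remaining members, at 0.25 and 0.19.

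Large subunit factors spanned the widest range, from -0.13 for NOC2L to 0.69 for RRS1, with a median of 0.24 and 11 of 12 genes above 0. RRS1, which brings the 5S ribonucleoprotein into the particle, had an FPKM of 7.83 with siControl and 12.6 with siSNRNP40, 61.4% higher and the largest value of any protein-coding member. It lies on chromosome 8 of GRCh37 from 67341249 to 67342968 and consists of 1 exon. RRP1, a nucleolar protein on chromosome 21, had 21.0 and 27.7 (0.40). GNL3 (nucleostemin), a nucleolar GTP-binding protein, had 154 and 195 (0.33). The subunits of the PeBoW complex, which joins PES1, BOP1 and WDR12, had different values, with 34.6 and 42.7 for PES1 (0.30), 9.68 and 9.73 for BOP1 (0.0083) and 49.2 and 51.0 for WDR12 (0.051). EBNA1BP2, the most abundant factor of the group, had 221 and 259 (0.23), and the RNA methyltransferase NOP2 had 16.7 and 20.02 (0.26). NOP16 was at 0.24, and NOC3L and the helicase DDX18 were at 0.095 and 0.046. NOC2L, which pairs with NOC3L, had 34.6 and 31.7 and was the only gene of the group with a value below 0.

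POP7, a subunit of the ribonucleases MRP and P that cut precursor ribosomal and transfer RNAs, had an FPKM of 27.4 with siControl and 36.2 with siSNRNP40. The other 9 subunits listed for these enzymes had a median log2 fold change of -0.0040, with 4 of 9 above 0. RPP21 was the only one of these 9 past the limit of 0.32, with an FPKM of 12.02 and 9.49 (-0.34). The highest of the 9 were RPP30 (0.25), RPP14 (0.18) and RPP25 (0.15). Apart from RPP21, the rest lay from -0.051 for RPP40 to 0.028 for RPP38.

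**Figure D3:**
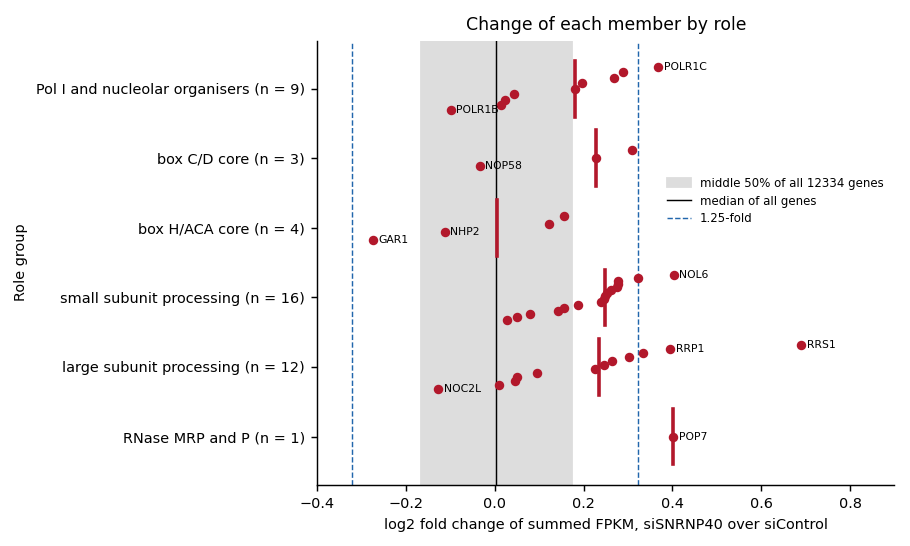
Log2 fold change of summed FPKM, siSNRNP40 over siControl, of each member (point) in 6 role groups, with the median of each group (red bar), the middle 50% of all 12334 genes (grey band), their median (black line) and the limits of 25% higher and 20% lower (dashed). All 16 small subunit factors lie above 0, and the box H/ACA group has the lowest median.

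Other genes of ribosome biogenesis were examined from lists that named further polymerase I factors, small and large subunit factors and ribonuclease subunits. Of 95 symbols, 92 were listed and reached a mean FPKM of 1. Their median log2 fold change was 0.11 and 65 of 92 were above 0, so by these measures they lay between the members and all genes. Past the limit of 0.32, 8 of 92 were higher and 5 lower, where 11.9% and 11.5% of all genes were. Neither share exceeded that of all genes. The higher ones were the polymerase I factors CD3EAP (3.96 and 5.54) and TAF1C (0.856 and 1.32), the small subunit factors UTP23 (21.6 and 34.8) and NAT10 (14.7 and 19.0), and the large subunit factors PPAN (9.25 and 13.4), WDR74 (21.6 and 29.1), DDX51 (5.66 and 7.26) and URB2 (4.63 and 5.83). The mean of TAF1C passed the limit of 1 only through siSNRNP40, so its place among the higher ones is not read as a result. The lower ones, besides RPP21, were the small subunit factors KRR1 (77.0 and 54.2), DIMT1 (43.3 and 31.7), FCF1 (18.6 and 14.05) and RCL1 (1.94 and 1.53). The small subunit processing factors outside the 45 members therefore held values in both directions, with 25 of 33 above 0.

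MYC, the best known activator of these genes, had an FPKM of 29.8 with siControl and 33.5 with siSNRNP40 (log2 fold change 0.168), and its partner MAX had 49.1 and 55.1 (0.168). Both values lay below the upper quartile of all genes, 0.175. MXD4, an antagonist of MYC, had 4.61 and 5.86 (0.35). A list of 12 interferon response genes was higher in the same comparison, with a median log2 fold change of 0.70, 12 of 12 above 0 and 10 past the limit of 0.32, and its summed FPKM was 570 with siControl and 911 with siSNRNP40. Its part in the members' values was not tested.

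The promoters of the members were searched for the E-box CACGTG, the letters bound by MYC and MAX, which read the same on both strands. The windows ran from 250 bases before to 50 bases after the gene start in the RefSeq annotation of GRCh38.p14, and 38 of the 45 members had an entry. NOP58, RRP12, BOP1, RRS1, NOLC1, DDX18 and TCOF1 were without one. CACGTG was present in 15 of the 38 windows (39.5%), against 7.43% of all 27305 windows of the same length and 10.3% of the 8440 that belong to genes at a mean FPKM of 1 or more. By role it was found in 8 of 15 small subunit, 4 of 9 large subunit and 0 of 7 polymerase I and organiser windows, and in those of FBL, NOP10 and POP7. The 17 copies comprised 6 before the gene start and 11 that overlapped or followed it. The median log2 fold change was 0.25 for the 15 members with CACGTG and 0.23 for the 23 without it, and over all expressed genes it was 0.0093 with and -0.0076 without the letters. A match is a description of the letters and not a bound site. The upstream copies are shown with up to 27 bases on each side, with the E-box in capitals.
POP7, chr7:100705954-100706013, plus strand: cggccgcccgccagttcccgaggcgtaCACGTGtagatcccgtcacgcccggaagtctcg
EBNA1BP2, chr1:43172775-43172820, minus strand: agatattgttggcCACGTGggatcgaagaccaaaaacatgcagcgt
UTP18, chr17:51260430-51260489, plus strand: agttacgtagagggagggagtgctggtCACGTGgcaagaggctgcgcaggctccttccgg
UTP20, chr12:101280068-101280104, plus strand: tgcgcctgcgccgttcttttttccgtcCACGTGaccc
NOP10, chr15:34343274-34343333, minus strand: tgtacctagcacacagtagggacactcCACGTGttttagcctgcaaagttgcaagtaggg
NOP10, chr15:34343137-34343174, minus strand: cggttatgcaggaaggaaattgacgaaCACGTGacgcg
The E-box of POP7 starts 140 bases before the gene start and that of EBNA1BP2 237 bases before it, while those of UTP20 and the nearer copy of NOP10 start 10 and 11 bases before it. The log2 fold change was 0.40 for POP7, 0.23 for EBNA1BP2, 0.16 for UTP20, 0.12 for NOP10 and 0.026 for UTP18.

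Several members are also hosts of small nucleolar or small Cajal body RNAs, which are cut from their introns. In the GENCODE annotation 7 of the 45 carry such an RNA on the same strand, namely NOP56, NOP58, NCL, DKC1, GNL3, WDR43 and POLR1C. The median log2 fold change was 0.16 for these 7 hosts and 0.23 for the other 38 members. The 4 members of 1 or 2 exons, RRS1, UTP3, POP7 and NOP10, had values from 0.12 to 0.69 with a median of 0.34, and the 41 members with more exons had a median of 0.20. Across the 45 genes, which are not independent replicates and share the same libraries, Spearman's rho of the log2 fold change was -0.15 with exon number, -0.14 with transcript length and -0.14 with mean FPKM, all weak. The annotation names pseudogenes for 10 members, including 49 for NPM1 and 5 for DDX18, and the median log2 fold change was 0.12 for these 10 and 0.24 for the other 35. Reads of such copies could have been divided among loci, and the FPKM of NPM1 is uncertain for that reason.

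Values of single transcripts told more of some genes than their sums. Of the 45 members 30 had 1 listed transcript and 15 had more, 72 transcripts in all. Among the 64 that reached a mean FPKM of 1 and were above 0 in both conditions, 1 was over 2-fold higher (5.50% of 16691 such transcripts in the whole table) and 1 was over 2-fold lower (5.04%). Both passed the limit on the mean only through the condition in which they were higher, so these counts are not read as a result. A share of a gene's FPKM moved by more than 10 percentage points between its transcripts in 4 of the 15 members (26.7%), RRP12, NOP56, LYAR and GAR1, where it did so in 41.0% of 5282 genes with several transcripts. This limit was chosen after the values were seen. The transcripts are numbered here by level, since the table gives no public transcript names, and FPKM is divided among overlapping transcripts by a model, so a shift may also come from that division.

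RRP12 showed the largest such shift. Its first transcript had an FPKM of 7.81 with siControl and 4.77 with siSNRNP40, and the second had 0.308 and 5.08, a fold of 16.5. The second transcript passed the limit on the mean only through siSNRNP40, so its count among the transcripts past 2-fold is a description. The share of the second transcript was 3.79% with siControl and 51.6% with siSNRNP40, while the sum of the gene differed by 0.28 on the log2 scale. The other transcript past 2-fold was the second of NOP16, with 2.27 and 0.917 (log2 fold change -1.31). Its mean passed the limit of 1 only through siControl, so its count is likewise a description. The first transcript of NOP16, which carried most of the gene, had 16.7 and 21.5. In NOP56 the first transcript had 58.4 and 103 and the second 86.8 and 67.0, so that the order of the 2 transcripts was exchanged between the conditions. In LYAR the order was exchanged as well, from 60.3 and 32.4 with siControl to 51.5 and 61.8 with siSNRNP40 for the first and second transcript. GAR1 had 2.10 and 2.29 for the first transcript and 2.57 and 1.57 for the second, so its lower sum lay in the second alone. NPM1 had 1552 and 1340 for the first transcript and 1046 and 1325 for the second, which moved the share of the first from 59.3% to 49.7% while the sum stayed within 3.09%. The third transcript of GNL3 was listed at 6.13 with siControl and at 0 with siSNRNP40, and no fold is given for it. For GNL3 as a whole the first transcript, with 138 and 182, held 89.5% and 93.8% of the FPKM. The higher sum of PES1 lay partly in its second transcript, with 4.46 and 8.25, beside 30.1 and 34.3 for the first.

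**Figure D4:**
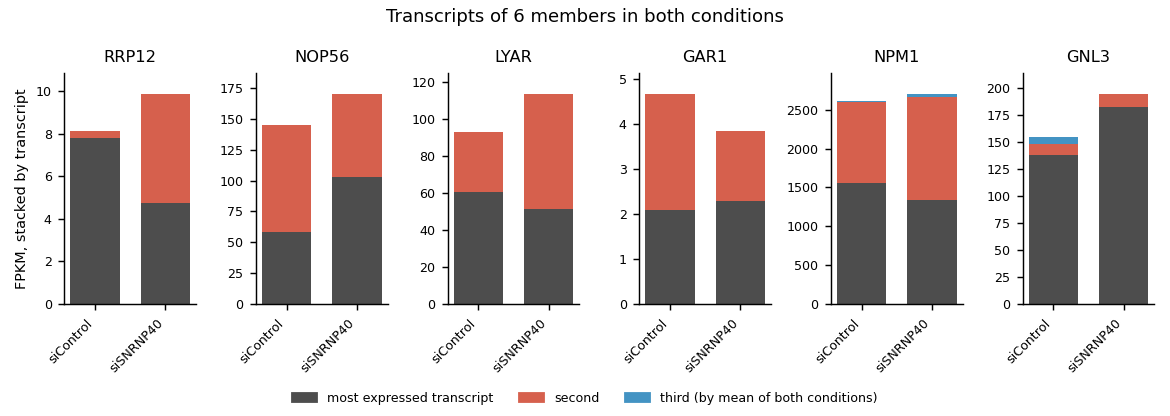
FPKM of the listed transcripts of 6 members (stacked bars from 0, with an axis for each gene), with siControl and siSNRNP40, 1 pooled value each, coloured by the order of their mean level. The second transcript of RRP12 goes from 3.79% to 51.6% of the gene, and the transcripts of NOP56 and LYAR exchange their order while the height of the bars differs less.

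LOC401010 was the exception in size. Its FPKM was 0.623 with siControl and 6.63 with siSNRNP40, a log2 fold change of 3.41 or a fold of 10.6. With a pseudocount of 1 the log2 fold change was 2.23. The siControl value lay below the limit of 1, which the mean passed only through the siSNRNP40 value, so its place among the genes above the limit is not read as a result. Its parent gene NOC2L lay in the other direction at -0.13. LOC401010 is listed as 1 transcript on chromosome 2 of hg19 from 132199734 to 132202467, 2734 bases, and the GENCODE annotation of GRCh37, which has the same coordinates, names the place NOC2LP2, a processed pseudogene on the minus strand. NOC2LP1, a further processed copy, lies on the same chromosome from 130986952 to 130989679. The locus of LOC401010 was 94.9% identical to NOC2LP1 over its whole length and 92.9% identical to the NOC2L mRNA over 98.4% of its length. Of all stretches of 50 bases in LOC401010, 24.7% held no difference from NOC2LP1 and 8.97% none from NOC2L. Of those of 100 bases, 8.16% held none from NOC2LP1 and 0 of 2591 none from NOC2L. The length of the sequenced reads is not given in the sources used here, so the share of reads that these differences would separate is unknown, and the part of reads from NOC2LP1 in the value of LOC401010 was not tested. NOC2LP1 is not a symbol in the deposited table. The best match of either siRNA in LOC401010 was 12 of 18 bases.

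A stretch of 120 bases that aligned without gaps in all 3 sequences, within the coding part of NOC2L, is shown for the differences that separate the copies, and it was picked as the one with the most differences between both pseudogenes. Capitals mark the 15 positions at which the 3 sequences are not all alike. LOC401010 covers chr2:132201618-132201737 (minus strand) and NOC2LP1 chr2:130987678-130987797 (plus strand) of GRCh37, while the NOC2L stretch covers bases 737 to 856 of its mRNA, in exons 7 and 8 of 19 on chromosome 1.
LOC401010: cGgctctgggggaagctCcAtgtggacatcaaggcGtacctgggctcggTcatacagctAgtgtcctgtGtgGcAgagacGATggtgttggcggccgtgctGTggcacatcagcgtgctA
NOC2LP1: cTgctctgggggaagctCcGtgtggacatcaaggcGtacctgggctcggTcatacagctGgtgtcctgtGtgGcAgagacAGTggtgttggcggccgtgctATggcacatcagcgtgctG
NOC2L: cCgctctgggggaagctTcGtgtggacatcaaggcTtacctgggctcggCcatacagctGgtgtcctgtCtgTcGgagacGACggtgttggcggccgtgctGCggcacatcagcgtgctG
In this stretch LOC401010 differed from NOC2LP1 at 7 positions and from NOC2L at 12, and NOC2LP1 differed from NOC2L at 12.

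**Figure D5:**
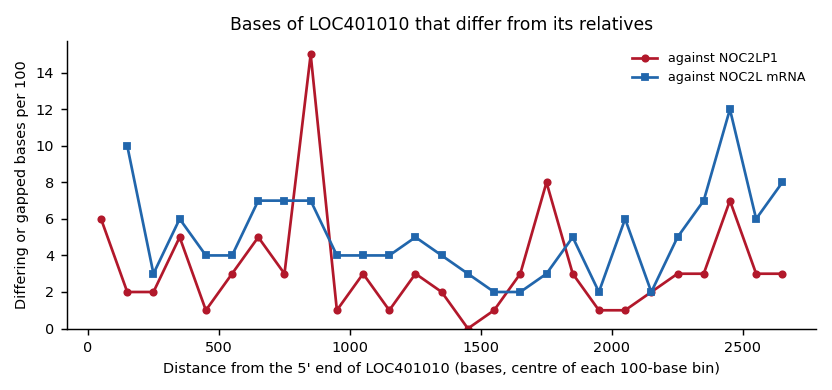
Number of bases of LOC401010 that differ from NOC2LP1 (red) and the NOC2L mRNA (blue) in bins of 100 bases (vertical axis). The horizontal axis is the distance from the 5' end of the locus in bases. A base aligned to a gap counts as differing. So does the base just before a gap in LOC401010, whatever the length of that gap. Differences from NOC2LP1 run from 0 to 15 per bin, and most bins hold fewer differences from NOC2LP1 than from NOC2L.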

How the data were processed

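RNA of 4 libraries was sequenced after removal of ribosomal RNA, with 2 libraries per group. By the submitters' processing notes and the study's methods, linkers and poor bases were cut off with cutadapt 1.2.1, reads were aligned to hg19 by TopHat2 2.0.8, Cufflinks gave the levels, and Cuffdiff 2.0.2 set the conditions against each other. Deposited values in FPKM are the authors' estimates per transcript, averaged over the libraries of a condition, and where transcripts overlap their fragments are shared out by a model. The table also holds the authors' fold changes, p-values and q-values, which hold the study's own findings and were not used.

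The FPKM of all transcripts with the same symbol was summed, and log2 fold changes were taken without a pseudocount for genes at a mean FPKM of 1 or more. No test was computed here, since 1 pooled value per condition leaves no spread between libraries, so counts and medians are set beside those of all genes. Members, role groups and lists were chosen with earlier results of these data known. The rule for named genes took those past 0.32 on the log2 scale, the 5 highest and 3 lowest, and those whose transcripts moved more than their sum. The sums and calls were run on simulated data with known folds, which checks their arithmetic only and not the error of the values. Annotation was GRCh37 with GENCODE 44, and promoters were RefSeq's for GRCh38.p14. Copies were aligned with blastn 2.17.0, and Python 3.11.15, numpy 2.4.6, pandas 2.3.3 and scipy 1.17.1 were used. Protein features were not analysed here. Alternatives were no filter, a minimum of 5 FPKM, a pseudocount of 1, centring, upper-quartile scaling, the most expressed transcript, genes with a single transcript and LOC401010 counted as a member. Part of the list that held MYC is not reported here.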

Additional observations from a re-analysis of the deposited data

How the results depend on the processing

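No paired analysis was possible because each deposited column merges 2 libraries and names no replicate, which also kept the alternatives that leave out a replicate from being run. The members' median log2 fold change, 0.23, lay between 0.19 and 0.26 under all 8 alternatives. Having no filter could not change it, since all 45 members reached the limit of 1 FPKM. The number past the limit of 0.32, 7, lay between 5 and 10, and with the most expressed transcript 1 of the 10, RRP12, was lower. The 5 were counted among only 30 members, those with a single transcript. The number above 0, 40 of 45, was 37 of 45 with the most expressed transcript and 28 of 30 with a single transcript. The number past 2-fold, 0, became 1 with LOC401010 counted as a member. The number of member transcripts past 2-fold, 2 of 64, was 12 of 64 at a limit of 1.5-fold. It was 6 of 71 with no filter and 0 of 49 with a minimum of 5 FPKM. The shares of all transcripts under these alternatives were not computed, so these counts are not read as a result. With the most expressed transcript in place of the sum, 7 of 45 members moved by at least 0.1, among them RRP12 (-0.71), NOP56 (0.82), LYAR (-0.23), NPM1 (-0.21) and GAR1 (0.13). A pseudocount of 1 moved none of the 45 by that much. Centring took the median of all genes, 0.0034, from every gene alike, so it could not move any by that much. The depth is unknown, so its limits cannot be stated.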
